A study of Mus musculus with 24 samples.

Results

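Gata4, Gata5 and Gata6 encode the GATA transcription factors of the gut lining, and their transcripts were followed through 24 RNA sequencing libraries of mouse stomach, cecum and ileum. The genes were chosen by name and matched to Ensembl identifiers, with no cutoff on a measured value. Earlier results of these data were known when they were chosen. They are 3 of the 39179 genes listed in the deposited counts, and all 3 passed the filter on low counts, which kept 20502 genes for testing. The study asked how loss of Cdx2, the homeobox factor that specifies intestine, and a mutant allele of Apc, a brake on Wnt signalling, act in the mouse gut.

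The libraries form 8 groups of 3. WT stomach and WT cecum came from untreated wild-type mice, and Cdx2+/- cecum from untreated mice heterozygous for Cdx2. Cdx2-/- cecum came from Cdx2f/f::AhCreERT mice, in which Cre under the inducible Cyp1a1 (Ah) promoter deletes floxed Cdx2 after tamoxifen and β-naphthoflavone. These 6 libraries carry separate series of library codes and were kept as set 1 (replicates 1 to 3) and set 2 (replicates 4 to 6). Treated Cdx2f/f::AhCreERT::ApcD14/+ mice, which carry the ApcD14 allele as well, gave the Cdx2-/-;Apc+/- libraries of cecum and of ileum. Apc+/- ileum came from untreated mice with that allele; for replicates 1 and 3 the genotype field lists a floxed Cdx2 allele with Cre, while the description calls Cdx2 not floxed. Treatment therefore goes with the Cdx2-/- genotype throughout, every ileum library carries the Apc allele, and there is no wild-type ileum. Age and strain were not used here. Whether each replicate is its own mouse is not stated, and the p-values then cover the spread among libraries only.

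GATA factors bind short DNA sites with a GATA core through a pair of zinc fingers and act with partners such as HNF1, HNF4, FOXA and CDX2 in gut epithelium. In mouse small intestine Gata4 is known for a high level in duodenum and jejunum and a low level in distal ileum; it supports jejunal genes of fat and sterol uptake and holds ileal bile acid genes down. Gata6 is known to be active along the whole intestine, in dividing crypt cells among others, Gata4 and Gata6 are both active in stomach epithelium, and Gata5 is the least studied of the 3 in gut. In human colorectal cancer the GATA4 and GATA5 promoters are known targets of DNA methylation; methylation was not measured here.

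Libraries held between 36567685 and 87975179 reads in genes, and levels are CPM, counts divided by the library's total and put on a common scale, after TMM scaling for library composition. Cdx2, the targeted gene, was at 408 to 663 CPM in WT cecum, 130 to 349 CPM in Cdx2-/- cecum, 122 to 151 CPM in Cdx2-/-;Apc+/- cecum and 115.5 to 118 CPM in Cdx2+/- cecum. All 9 cecum libraries labelled Cdx2-/-, with or without the Apc allele, thus held more Cdx2 than each library labelled Cdx2+/-, against the order of the labels. Between the libraries labelled Cdx2-/-;Apc+/- ileum (36.9 to 178 CPM) and Apc+/- ileum (63.3 to 112 CPM) Cdx2 differed by 0.14 ± 0.47 on the log2 scale (edgeR, adjusted p = 0.981). Counts per gene do not show which exons the reads cover, and group names below are those of the labels. Tissue labels were checked with marker lists. Cecum and colon markers summed to between 19410 and 35820 CPM in WT cecum, 4752 and 5574 CPM in Cdx2+/- cecum, 166 and 2575 CPM in Cdx2-/- cecum and at most 80.7 CPM in stomach. Stomach surface markers reached 678 CPM in WT cecum replicate 2 and 266 CPM in replicate 1 against 3.12 CPM in replicate 3. Xist, which marks female tissue, was between 666 and 816 CPM in set 1 and at most 2.19 CPM in every other library. In whole tissue, fewer cells of a type and less RNA per cell cannot be told apart.

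Gata5 was nearly silent in WT cecum and high in every other group, whatever the tissue or genotype. Gata5 (ENSMUSG00000015627) lies on chromosome 2 of GRCm38 from 180325133 to 180334699, on the minus strand. In WT cecum its level was 1.03, 1.95 and 0.431 CPM, on 29 to 93 reads. The order of these libraries was that of their stomach surface markers (266, 678 and 3.12 CPM). The part of those markers in the Gata5 level was not tested. The 21 libraries of the other 7 groups held 71.1 to 148 CPM, on 3418 to 9372 reads, so that no library came near those of WT cecum.

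Within that high range, the groups lay close together in CPM. Cdx2-/- set 1 had 93.7, 148 and 137 CPM, and set 2 had 91.8, 76.4 and 99.6 CPM. Cdx2+/- cecum had 93.6, 106.5 and 100 CPM, and Cdx2-/-;Apc+/- cecum had 76.4, 79.0 and 73.1 CPM. The cecum libraries of all 3 mutant genotypes thus sat within or above the range of stomach and ileum. WT stomach had 94.1, 82.1 and 71.1 CPM, Cdx2-/-;Apc+/- ileum had 105, 103.5 and 111 CPM, and Apc+/- ileum had 98.2, 93.4 and 99.3 CPM. By mean level the order was Cdx2-/- set 1 (126 ± 28.8 CPM, SD, n = 3), Cdx2-/-;Apc+/- ileum (107 ± 4.19), Cdx2+/- cecum (100.1 ± 6.46), Apc+/- ileum (96.9 ± 3.14), Cdx2-/- set 2 (89.3 ± 11.8), WT stomach (82.4 ± 11.5), Cdx2-/-;Apc+/- cecum (76.2 ± 2.98) and WT cecum (1.14 ± 0.763). Neighbours in this order overlapped in their libraries at every step but the last.

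The start of Gata5 is shown because WT cecum and the other groups do not overlap in Gata5. Reads counted for Gata5os, an annotated antisense transcript, were also lowest in WT cecum. The windows run from 250 bases before to 50 bases after each RefSeq start on GRCm38.p6, 5′ to 3′ on the strand of the gene, Gata5 at chr2:180334630-180334929 on the minus strand and Gata5os at chr2:180332607-180332906 on the plus strand. Capitals mark CG dinucleotides in the first and the letters TTTAT, the core of many CDX binding sites, in the second.
Gata5: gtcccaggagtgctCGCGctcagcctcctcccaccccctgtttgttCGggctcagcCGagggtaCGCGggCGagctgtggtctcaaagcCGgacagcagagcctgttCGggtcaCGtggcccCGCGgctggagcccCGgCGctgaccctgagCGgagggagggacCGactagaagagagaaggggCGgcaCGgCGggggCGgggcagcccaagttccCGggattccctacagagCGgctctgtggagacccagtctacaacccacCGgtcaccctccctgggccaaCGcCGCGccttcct
Gata5os: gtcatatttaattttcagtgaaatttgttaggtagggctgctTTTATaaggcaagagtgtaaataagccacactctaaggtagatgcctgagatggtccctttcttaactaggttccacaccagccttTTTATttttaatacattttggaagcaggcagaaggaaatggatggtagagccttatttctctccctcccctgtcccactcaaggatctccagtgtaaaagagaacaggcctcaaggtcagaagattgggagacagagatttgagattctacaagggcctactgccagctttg

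The Gata5 window is 69.7% G or C and holds 26 CG dinucleotides, while the median of all 32851 RefSeq promoter windows is 52.7% G or C and 7 CG; 16.9% of windows hold as many CG or more. TTTAT was searched on both strands, is absent from the Gata5 window, occurs at 2 places in the Gata5os window and is present in 40.01% of all windows. GATAA, the GATA core searched likewise, is in neither window and in 25.4% of all. The Gata5os window is 42.7% G or C with 0 CG. These are matches of letters and carry no reading of a factor at work.

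**Figure D1:**
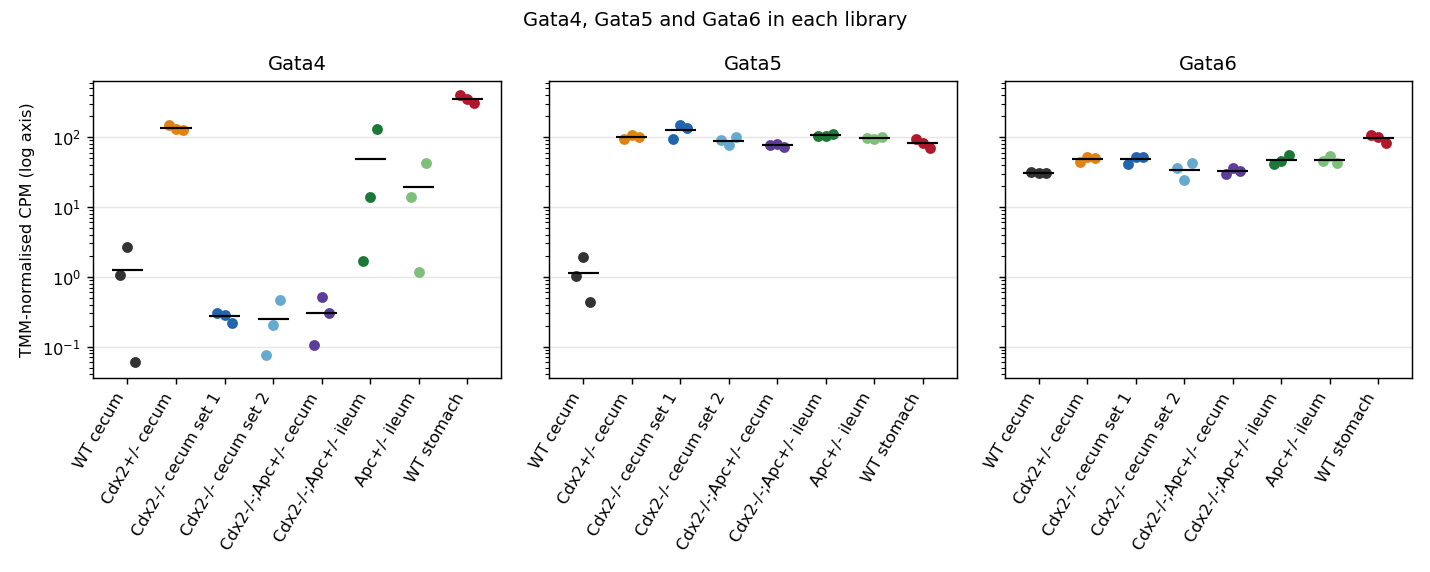
TMM-normalised CPM on a log axis (vertical) of Gata4, Gata5 and Gata6 in each of the 24 libraries by group (horizontal); points are libraries and black lines are means of 3. Gata5 is at 0.431 to 1.95 CPM in WT cecum and at 71.1 CPM or more elsewhere, Gata4 is high in stomach and Cdx2+/- cecum, low in WT cecum and in cecum labelled Cdx2-/-, and spread from 1.19 to 131 CPM in ileum, and Gata6 spans a narrow range in all groups.

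Gata4 divided the mutant ceca: it was low in Cdx2-/- cecum, as in WT cecum, and high in Cdx2+/- cecum. Gata4 (ENSMUSG00000021944) lies on chromosome 14 of GRCm38 from 63198922 to 63271692, on the minus strand. WT stomach libraries had 409, 352 and 307 CPM, and Cdx2+/- cecum libraries had 150.2, 131 and 126 CPM. All 9 cecum libraries labelled Cdx2-/-, with or without the Apc allele, were far under 1 CPM: set 1 had 0.305, 0.285 and 0.219 CPM, set 2 had 0.0768, 0.205 and 0.467 CPM, and Cdx2-/-;Apc+/- cecum had 0.106, 0.509 and 0.307 CPM, on 4 to 28 reads each. The 6 libraries of Cdx2-/- cecum together averaged 0.259 ± 0.129 CPM (SD, n = 6).

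WT cecum libraries had 1.06, 2.66 and 0.0594 CPM of Gata4, on 40, 127 and 4 reads. The order of these libraries was that of their stomach surface markers (266, 678 and 3.12 CPM) and of their stomach gland markers (18.5, 412 and 1.92 CPM); the part of those markers in the Gata4 level was not tested. Replicate 3, which is nearly free of stomach markers, was below all 9 cecum libraries labelled Cdx2-/-, and the other 2 were above them. The ileum libraries scattered most: 1.67, 13.8 and 131 CPM in Cdx2-/-;Apc+/- ileum and 14, 1.19 and 43.1 CPM in Apc+/- ileum. By mean level the order was WT stomach (356 ± 51.2 CPM, SD, n = 3), Cdx2+/- cecum (136 ± 12.7), Cdx2-/-;Apc+/- ileum (48.9 ± 71.5), Apc+/- ileum (19.4 ± 21.45), WT cecum (1.26 ± 1.31), Cdx2-/-;Apc+/- cecum (0.307 ± 0.201), Cdx2-/- set 1 (0.269 ± 0.0451) and Cdx2-/- set 2 (0.249 ± 0.199). Only stomach and Cdx2+/- cecum were neighbours whose libraries did not overlap.

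Gata6 was present in all 24 libraries at moderate levels, highest in stomach, and moved least. Gata6 (ENSMUSG00000005836) lies on chromosome 18 of GRCm38 from 11052064 to 11085635, on the plus strand. WT cecum had 31.97, 30.9 and 30.5 CPM and WT stomach had 107, 99.4 and 83.3 CPM. Cdx2+/- cecum had 43.5, 52.7 and 49.98 CPM, above all WT cecum libraries and below all stomach libraries. Set 1 of Cdx2-/- cecum, at 41.7, 52.8 and 51.5 CPM, also lay above WT cecum. Set 2, at 35.8, 24.1 and 42.8 CPM, and Cdx2-/-;Apc+/- cecum, at 29.3, 36.0 and 33.0 CPM, straddled it. Cdx2-/-;Apc+/- ileum had 40.7, 45.6 and 55.7 CPM and Apc+/- ileum had 45.2, 53.5 and 42.8 CPM, which overlap each other.

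By mean level Gata6 ran from WT stomach (96.5 ± 12.0 CPM, SD, n = 3) through Cdx2+/- cecum (48.7 ± 4.71), Cdx2-/- set 1 (48.6 ± 6.04), Cdx2-/-;Apc+/- ileum (47.3 ± 7.66), Apc+/- ileum (47.2 ± 5.61), Cdx2-/- set 2 (34.2 ± 9.48) and Cdx2-/-;Apc+/- cecum (32.8 ± 3.34) to WT cecum (31.1 ± 0.778). The step from stomach to the next group was the only one whose libraries did not overlap. The RLE scaling of DESeq2 in place of TMM left these orders as they are, apart from the pair of ileum groups in the Gata6 order, which changed places. Levels per length of exon, scaled to the sum of all such values, gave other orders for each member. For Gata4 the sets of Cdx2-/- cecum changed places (0.218 in set 2 and 0.202 in set 1). For Gata6, Apc+/- ileum (27.7) and Cdx2-/-;Apc+/- ileum (27.5) were above stomach (25.5). With longest transcripts they were below it (37.8 and 37.6 against 38.2). For Gata5, stomach (43.3) fell below every group but WT cecum. Cdx2+/- cecum had 72.1, Cdx2-/- set 1 had 113 and Cdx2-/-;Apc+/- ileum had 123, so these groups lay less close together than in CPM.

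Per length of exon, the 3 genes can be set against each other within a library, and the make-up of the Gata transcripts differed between groups. In reads per kilobase of exon, scaled to the same total in each library, the sum of the 3 was 12.2 ± 0.943 in WT cecum (SD, n = 3) and 226 ± 20.9 in WT stomach. In WT cecum 88.4 ± 9.11% of that sum was Gata6. Stomach was led by Gata4 (69.5 ± 0.380%), with 19.2% in Gata5 and 11.3% in Gata6. Cdx2+/- cecum, with a sum of 172 ± 4.87, had Gata4 (47.8 ± 3.85%) and Gata5 (41.95 ± 2.80%) at near parity.

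Cdx2-/- cecum was led by Gata5, with 83.4 ± 1.67% in set 1 and 83.9 ± 2.12% in set 2, and Cdx2-/-;Apc+/- cecum likewise with 82.0 ± 1.51%. Their sums were 136 ± 30.3, 114 ± 12.4 and 99.3 ± 5.45, and Gata4 gave 0.157 ± 0.0578%, 0.192 ± 0.132% and 0.274 ± 0.170% of them. The ileum groups were also led by Gata5, at 67.5 ± 20.1% in Cdx2-/-;Apc+/- and 71.4 ± 7.22% in Apc+/-, with the rest shared by Gata4 and Gata6 in proportions that changed from library to library. The length used for Gata6 matters, since its annotated exons together (6508 bases) are longer than its longest transcript (3784 bases). With longest transcripts Gata6 made up 92.3% in WT cecum, 16.45% in stomach and 25.3% in set 1, and the leading gene of each group was the same; in stomach Gata6 and Gata5 (16.2%) changed places.

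**Figure D2:**
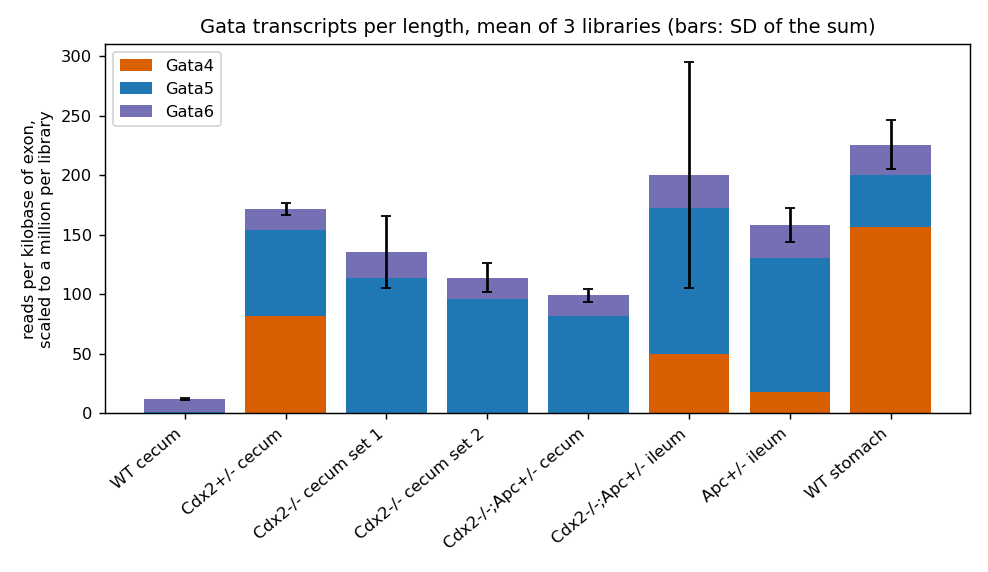
Reads per kilobase of exon, scaled to the same total per library (vertical), for Gata4, Gata5 and Gata6, stacked, as the mean of 3 libraries in each of the 8 groups (horizontal); error bars are the SD of the sum. WT cecum sums to 12.2, almost all Gata6; cecum labelled Cdx2-/- and ileum are mostly Gata5, and Gata4 makes up most of the stomach sum and shares the Cdx2+/- cecum bar with Gata5.

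Cdx2-/- cecum showed a gain of Gata5 and no detected gain of Gata4. Against WT cecum, where 53.1% of all tested genes were called (edgeR quasi-likelihood test, Benjamini-Hochberg adjusted p under 0.05), Gata5 was 94.5-fold higher in Cdx2-/- cecum (log2 fold change 6.56 ± 0.36 SE, adjusted p = 1.42e-10) and higher in 6 of 6 libraries. Its size depends on the low counts of WT cecum: without WT cecum replicate 2 it was 7.23, with replicate 3 alone 7.94, and over 17 alternatives the adjusted p was at most 1.97e-05. It was called in each set on its own, with 6.81 ± 0.37 (adjusted p = 3.38e-10, 47.4% of genes called) in set 1 and 6.31 ± 0.36 (adjusted p = 1.30e-09, 50.2% of genes called) in set 2, and without WT cecum replicate 2 these were 7.49 and 6.98. The log2 change of Gata4 was -2.25 ± 1.13 (95% interval -4.61 to 0.11, adjusted p = 0.101) and was not called. With WT cecum replicate 3 as the only wild-type library that value was 2.07, so no direction is drawn; without replicate 3 it was -2.85 and called, and over 17 alternatives the adjusted p ran from 0.0411 to 0.622.

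Gata6 was 1.31-fold higher in Cdx2-/- cecum than in WT cecum (log2 fold change 0.39 ± 0.15, adjusted p = 0.0367), a call that was lost under 12 of 17 alternatives, among which the value ranged from 0.30 to 0.64 and the adjusted p from 0.00125 to 0.245; it was lost on leaving out any of the WT cecum libraries (0.38 to 0.41), set 1 replicate 2 (0.36) or 3 (0.37), or set 2 replicate 4 (0.38) or 6 (0.30). Gata6 was called in set 1 (0.65 ± 0.17, adjusted p = 0.00470) and not in set 2 (0.14 ± 0.17, adjusted p = 0.523). The replicate block, among the alternatives above, holds set 1 alone of Cdx2-/- cecum and gave the 0.64 and the 0.00125. Between set 2 and set 1, where 10.5% of genes were called, 0 of the 3 members were. The unadjusted p in edgeR was 0.00858 for Gata6 (-0.51 ± 0.17, adjusted p = 0.0665), 0.0909 for Gata5 and 0.921 for Gata4. Set 1 differs from set 2 and from WT cecum in Xist as well, and the part of sex in these values cannot be told apart from the set.

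Cdx2+/- cecum rose in all 3 members against WT cecum, with 34.4% of genes called. Gata4 was 109.8-fold higher (log2 fold change 6.78 ± 1.40, adjusted p = 0.00102), Gata5 89.1-fold (6.48 ± 0.36, adjusted p = 2.30e-09) and Gata6 1.57-fold (0.65 ± 0.17, adjusted p = 0.00696). Without WT cecum replicate 2 the Gata4 value was 8.08 and the Gata5 value 7.15, without replicate 3 the Gata4 value was 6.18, and with replicate 3 alone it was 11.10; all were still called. Direct comparison of Cdx2-/- with Cdx2+/- cecum, with 40.3% of genes called, left 1 member apart: Gata4 was 523-fold lower in Cdx2-/- cecum (-9.03 ± 1.15, adjusted p = 2.56e-05), below every Cdx2+/- library in 6 of 6. Gata5 differed by 0.09 ± 0.24 (95% interval -0.42 to 0.60, adjusted p = 0.800) and Gata6 by -0.26 ± 0.15 (-0.57 to 0.05, adjusted p = 0.172).

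Cell make-up differed between these groups as well. Epithelial markers summed to between 27610 and 28900 CPM in Cdx2+/- cecum, 15400 and 26570 CPM in WT cecum and 7526 and 17610 CPM in Cdx2-/- cecum. All 5 stomach surface markers and 6 of 6 squamous markers were higher in Cdx2+/- than in WT cecum, with 34.4% of all genes called. Stomach surface markers summed to between 30680 and 32190 CPM in Cdx2+/- cecum, 2321 and 24020 CPM in Cdx2-/- cecum and 3.12 and 678 CPM in WT cecum. Squamous markers summed to between 45.6 and 755 CPM, 14.2 and 45.04 CPM and 1.203 and 4.13 CPM in the same groups. Smooth muscle markers summed to between 139 and 556 CPM in Cdx2+/- cecum, 1385 and 3062 CPM in Cdx2-/- cecum and 1184 and 3930 CPM in WT cecum. The part of these cell types in the Gata4 and Gata5 differences was not tested. Mesothelium, the outer lining of the gut, is known to express Gata factors too. Its 5 detected markers summed to between 2.25 and 20.1 CPM in WT cecum, 25.7 and 99.3 CPM in Cdx2-/- cecum, 9.21 and 27.3 CPM in Cdx2+/- cecum and 10.2 and 32.8 CPM in stomach. Msln was the only one of the 5 that was higher than in WT cecum in Cdx2-/- cecum (4.37 ± 0.59, adjusted p = 5.09e-06) and in Cdx2+/- cecum (2.47 ± 0.57, adjusted p = 0.00240). Of the other 4, 0 were called in Cdx2-/- cecum, with 53.1% of all genes called. Upk3b, Lrrn4 and Wt1 were lower in Cdx2+/- cecum (list median -3.66, with 34.4% of all genes called). The part of mesothelium was not tested.

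Wild-type stomach was the reference for gastric identity, and all 3 members were higher there than in WT cecum, with 43.7% of genes called. Gata4 was 288-fold higher (log2 fold change 8.17 ± 1.48, adjusted p = 0.00018), Gata5 73.4-fold (6.20 ± 0.36, adjusted p = 5.53e-10) and Gata6 3.10-fold (1.63 ± 0.18, adjusted p = 5.71e-07). Without WT cecum replicate 2 the values were 9.47 for Gata4 and 6.87 for Gata5, without replicate 3 Gata4 had 7.57, and against replicate 3 alone it had 12.49; all were still called. Comparisons with WT cecum share its 3 libraries and are therefore not independent of each other.

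Set against stomach, cecum labelled Cdx2-/- was lower in Gata4 and Gata6. In Cdx2-/- cecum, with 39.4% of genes called, Gata4 was 1371-fold lower than in stomach (-10.42 ± 1.201, adjusted p = 1.51e-06) and Gata6 2.37-fold lower (-1.24 ± 0.14, adjusted p = 1.68e-06), while Gata5 differed by 0.37 ± 0.25 (95% interval -0.15 to 0.88, adjusted p = 0.253). In Cdx2-/-;Apc+/- cecum, with 41.8% called, the values were -10.18 ± 1.65 for Gata4 (adjusted p = 8.20e-05), -1.56 ± 0.18 for Gata6 (adjusted p = 1.93e-06) and -0.11 ± 0.28 for Gata5 (-0.70 to 0.47, adjusted p = 0.773). Cdx2+/- cecum, with 39.1% called, was lower than stomach in Gata6 (-0.99 ± 0.17, adjusted p = 0.000216). Its Gata4 value of -1.39 ± 1.09 (-3.66 to 0.88, adjusted p = 0.330) was not called although no libraries overlap; a fit of these 2 groups alone gave -1.43 and called it. Gata5 differed by 0.28 ± 0.28 (-0.31 to 0.87, adjusted p = 0.455).

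**Figure D3:**
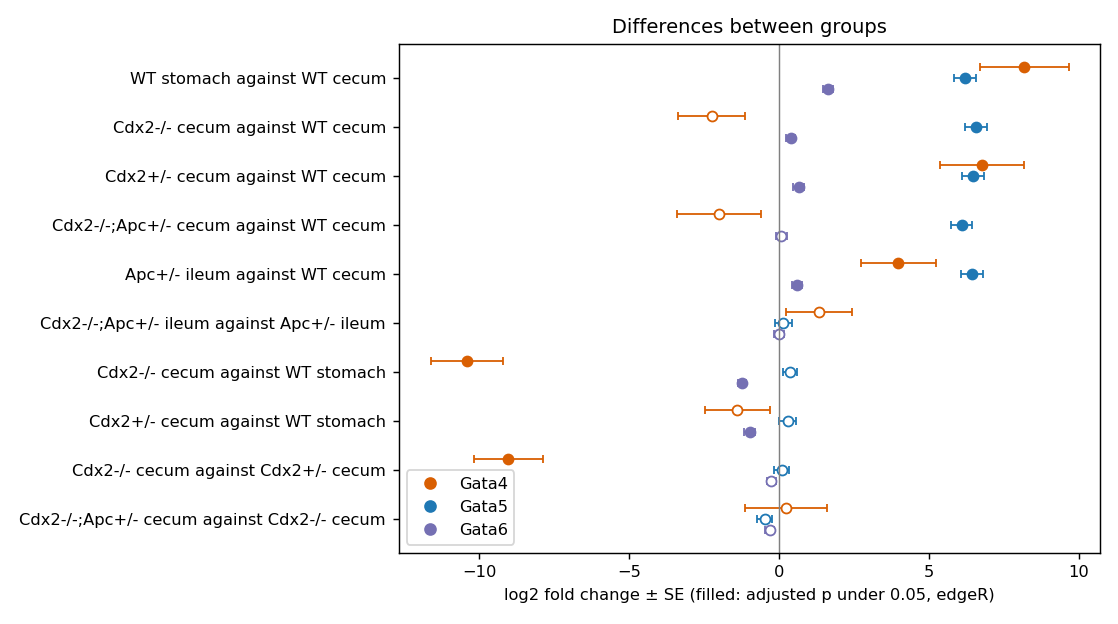
Log2 fold change ± SE (horizontal) of the 3 members in 10 comparisons between groups (vertical), from edgeR; filled points have an adjusted p under 0.05. Gata5 stands off 0 in the 5 comparisons with WT cecum as reference (6.08 to 6.56), Gata4 separates Cdx2-/- cecum from stomach and from Cdx2+/- cecum (-10.42 and -9.03), and Gata6 stays between -1.24 and 1.63.

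The mutant Apc allele added to the Cdx2-/- genotype came with no detected change in the 3 members. Cdx2-/-;Apc+/- cecum against Cdx2-/- cecum, with 8.43% of genes called, gave 0.24 ± 1.37 for Gata4 (95% interval -2.63 to 3.11, adjusted p = 0.941), -0.48 ± 0.25 for Gata5 (-0.998 to 0.04, adjusted p = 0.236) and -0.32 ± 0.15 for Gata6 (-0.63 to 0.00, adjusted p = 0.201). Unadjusted p-values in edgeR were 0.864 for Gata4, 0.0679 for Gata5 and 0.0507 for Gata6. The Cdx2-/- side averages set 1, high in Xist, with set 2, which like Cdx2-/-;Apc+/- cecum is low in Xist (at most 0.979 and 0.555 CPM). Mean Gata6 was 48.6 CPM in set 1, 34.2 CPM in set 2 and 32.8 CPM in Cdx2-/-;Apc+/- cecum, and mean Gata5 was 126, 89.3 and 76.2 CPM. The part of set and sex in this comparison was not tested. Against WT cecum, with 52.8% called, Gata5 was 67.8-fold higher in Cdx2-/-;Apc+/- cecum (6.08 ± 0.36, adjusted p = 1.78e-09, and 6.75 without WT cecum replicate 2). Gata4 (-2.01 ± 1.40, adjusted p = 0.238) and Gata6 (0.08 ± 0.17, adjusted p = 0.736) were not called. As in Cdx2-/- cecum, the sign of the Gata4 value turned (2.31) with WT cecum replicate 3 alone.

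The ileum already had Gata5 in the range of cecum labelled Cdx2-/-, and no member was called between the ileum groups. Apc+/- ileum against WT cecum, with 55.4% of genes called, was higher in Gata4 (15.7-fold; 3.97 ± 1.25, adjusted p = 0.0113), Gata5 (86.3-fold; 6.43 ± 0.36, adjusted p = 6.81e-10) and Gata6 (1.52-fold; 0.60 ± 0.17, adjusted p = 0.00656). The Gata4 call rests on Apc+/- ileum replicate 3: without it the value was 2.62 and not called. Without WT cecum replicate 2 Gata4 had 5.27 and Gata5 7.10, and without WT cecum replicate 3 Gata4 had 3.37, all called. Cdx2-/-;Apc+/- against Apc+/- ileum, with 0.444% of genes called, gave 1.33 ± 1.09 for Gata4 (-0.95 to 3.61, adjusted p = 0.802), 0.14 ± 0.28 for Gata5 (-0.45 to 0.73, adjusted p = 0.963) and 0.01 ± 0.17 for Gata6 (-0.36 to 0.37, adjusted p = 1.00). Unadjusted p-values in edgeR were 0.237, 0.627 and 0.977 in the same order. Leaving out Cdx2-/-;Apc+/- ileum replicate 3 turned the Gata4 value to -1.32.

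The difference in Gata5 between the labelled genotypes was itself different in the tissues. The change from WT cecum to Cdx2-/-;Apc+/- cecum exceeded the change from Apc+/- to Cdx2-/-;Apc+/- ileum by 5.94 ± 0.44 on the log2 scale (adjusted p = 1.42e-07), with 34.7% of genes called in this interaction; without WT cecum replicate 2 it was 6.61. The cecum control is wild type and the ileum control carries the Apc allele, so tissue and control genotype cannot be told apart; Cdx2 was lower in the cecum arm (-2.05 ± 0.49, adjusted p = 0.00167) and not detectably changed in the ileum arm (0.14 ± 0.47, adjusted p = 0.981). The same test gave -3.34 ± 1.77 for Gata4 (adjusted p = 0.151) and 0.07 ± 0.24 for Gata6 (adjusted p = 0.848).

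Between cecum and ileum of Cdx2-/-;Apc+/- mice, with 16.2% of genes called, Gata4 kept a tissue difference: it was 159.5-fold lower in cecum (-7.32 ± 1.498, adjusted p = 0.00340), with no library overlap. Without Cdx2-/-;Apc+/- ileum replicate 3 the value was -4.66 and still called (adjusted p from 1.13e-07 to 0.0826 over 12 alternatives). Gata6 was 1.44-fold lower in cecum (-0.53 ± 0.17, adjusted p = 0.0429), a call lost under 7 of 12 alternatives (-0.63 to -0.40), among them the omission of any Cdx2-/-;Apc+/- cecum library (-0.60 to -0.47) or of ileum replicate 2 (-0.56) or 3 (-0.40). Gata5 differed by -0.49 ± 0.28 (95% interval -1.07 to 0.10, adjusted p = 0.255). A fit of these 2 groups alone left the Gata4 value at -7.27 and did not call it.

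The ileum libraries of a group differed widely from each other in Gata4 and in regional genes. Cdx2-/-;Apc+/- ileum replicate 3, with the highest Gata4 (131 CPM), had the lowest Cdx2 (36.9 CPM), the lowest sum of 5 ileal genes (7.47 CPM) and the highest sum of stomach surface markers (6636 CPM) of the 6. Replicate 2 of that group had 13.8 CPM of Gata4 with 178 CPM of Cdx2, 2802 CPM of ileal genes and 213 CPM of stomach surface markers. Replicate 1 had 1.67 CPM of Gata4 with 59.4 CPM of ileal genes and 4251 CPM of stomach surface markers.

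In Apc+/- ileum the stomach surface markers stayed between 8.13 and 38.3 CPM. Replicate 3, with 43.1 CPM of Gata4, had 59.0 CPM of Lct (lactase, a brush border enzyme of proximal small intestine) and 225 CPM of ileal genes. Replicate 2, with 1.19 CPM of Gata4, had 0.538 CPM of Lct and 453 CPM of ileal genes, and replicate 1 lay between them with 14 CPM of Gata4, 2.23 CPM of Lct and 405 CPM of ileal genes. Cdx2-/-;Apc+/- ileum had 0.245, 4.38 and 5.39 CPM of Lct in replicates 1 to 3, and its jejunal list summed to 828, 11570 and 1543 CPM, highest in replicate 2 and not in replicate 3, which has the most Gata4. The labels do not say from which position along the ileum each piece was taken, and the part of position was not tested.

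**Figure D4:**
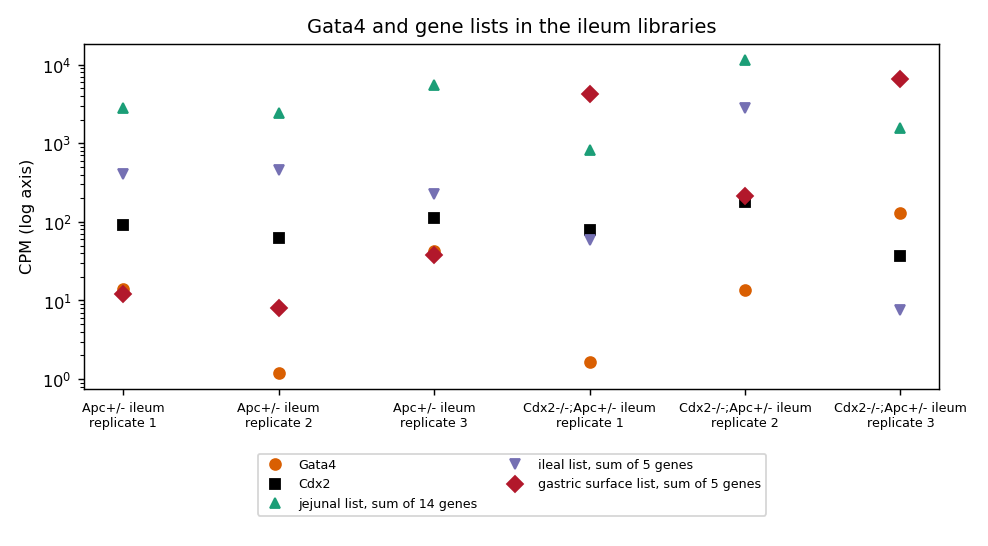
CPM on a log axis (vertical) of Gata4, Cdx2 and the summed jejunal, ileal and stomach surface lists in the 6 ileum libraries (horizontal). Gata4 runs from 1.19 to 131 CPM; within Apc+/- ileum the library with more Gata4 has less of the ileal list, and Cdx2-/-;Apc+/- replicates 1 and 3 carry 4251 and 6636 CPM of stomach surface markers.

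Genes that Gata4 is known to control in mouse were described from lists of names, chosen with earlier results of these data known. Of 14 jejunal genes that Gata4 supports, 12 were lower and 1 higher in Cdx2-/- than in Cdx2+/- cecum, with a median log2 fold change of -3.36 against 0.05 over all genes, of which 40.3% were called. Among those lower were Abcg5 (-3.89 ± 0.57, adjusted p = 8.73e-05) and Abcg8 (-4.06 ± 0.69, adjusted p = 0.000275), which form a sterol exporter, and Apoa4 (-5.95 ± 1.02, adjusted p = 0.000296), an apolipoprotein of chylomicrons; Cd36, a fatty acid receptor also found outside epithelium, was higher (1.91 ± 0.29, adjusted p = 0.000118). Against WT cecum, 9 were higher and 1 lower in Cdx2+/- cecum (median 3.31, with 34.4% of all genes called). In Cdx2-/- cecum 6 were higher and 2 lower (median 0.45), a share near the 53.1% of all genes called.

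Other comparisons gave the following counts for the jejunal list. In Cdx2-/-;Apc+/- mice 10 of the 14 were lower in cecum than in ileum and 0 higher (median -3.48, with 16.2% of all genes called). A fit of those groups alone called 0 of 18501 genes. The list summed to between 1158 and 1623 CPM in these cecum libraries and to 828, 11570 and 1543 CPM in ileum. Only ileum replicate 2 thus lay above the cecum range in sum. In Apc+/- ileum 9 of the 14 were higher and 1 lower than in WT cecum (median 6.39, with 55.4% called). In stomach, with the highest Gata4, 4 were higher and 3 lower than in WT cecum (median 1.58), a share near the 43.7% of all genes called. The 5 ileal genes that Gata4 is known to repress were counted in the same way. In Cdx2-/- cecum 4 of the 5 were lower than in Cdx2+/- cecum and 0 higher (median -4.78, with 40.3% of all genes called), Slc10a2, the ileal bile acid carrier, by -5.26 ± 0.90 (adjusted p = 0.000293) and Fgf15, the hormone that reports bile acid uptake to the liver, by -7.23 ± 1.30 (adjusted p = 0.000435). Both lists hold genes of mature enterocytes, and the part of fewer such cells was not tested.

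Of 4 stomach genes known to be bound or driven by GATA factors, all 4 were higher in stomach than in WT cecum (median log2 fold change 8.84, with 43.7% of all genes called). They are Atp4a and Atp4b, the subunits of the proton pump of acid-secreting parietal cells, and Tff1 and Tff2, trefoil peptides of surface and neck mucous cells. In Cdx2-/- cecum the trefoil genes were higher than in WT cecum, Tff2 by 5.43 ± 1.22 (adjusted p = 0.001) and Tff1 by 3.66 ± 1.08 (adjusted p = 0.00773). Atp4b was lower there (-6.31 ± 1.32, adjusted p = 0.000513) and Atp4a was not called (-1.60 ± 1.12, adjusted p = 0.240), against WT cecum libraries that carry stomach gland reads. Between the mutants, all 4 were lower in Cdx2-/- than in Cdx2+/- cecum, with 40.3% of all genes called. They ran from Atp4b (-8.84 ± 1.29, edgeR adjusted p = 7.83e-05) to Tff2 (-2.25 ± 0.87, edgeR adjusted p = 0.0461).

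The cofactors of GATA proteins were followed as well. Zfpm1, which encodes FOG1, a zinc finger protein known to bind GATA factors, had 2.73, 2.01 and 1.93 CPM in WT cecum and 58.8 to 67.1 CPM in Cdx2+/- cecum. It had 138, 99.3 and 87.8 CPM in stomach and 79.7, 111 and 80.1 CPM in Apc+/- ileum. Set 1 held 24.6, 118 and 106.0 CPM and set 2 held 37.1, 18.7 and 28.3 CPM, so that like Gata5 it was low in WT cecum alone, but with more spread above it.

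Against WT cecum, Zfpm1 was higher by 4.44 ± 0.45 in Cdx2-/- cecum (adjusted p = 1.71e-07), 4.84 ± 0.47 in Cdx2+/- cecum (adjusted p = 5.72e-07), 5.61 ± 0.49 in stomach (adjusted p = 4.24e-08) and 5.35 ± 0.48 in Apc+/- ileum (adjusted p = 6.67e-08). Zfpm1 was lower in set 2 than in set 1 (-1.56 ± 0.41, edgeR adjusted p = 0.0215). That difference rests on set 1 replicates 2 and 3 (118 and 106.0 CPM), the libraries most alike within any group. Set 1 replicate 1 (24.6 CPM) lay within the range of set 2 (18.7 to 37.1 CPM). Gata5 had -0.50 ± 0.28 between the sets (edgeR adjusted p = 0.268), and the difference between the genes was not tested. Zfpm1 was also lower in Cdx2-/- cecum than in stomach (-1.17 ± 0.33, edgeR adjusted p = 0.00903). Zfpm2, which encodes FOG2, was lower in Cdx2+/- cecum than in WT cecum (-2.75 ± 0.68, adjusted p = 0.00412) and was not called in Cdx2-/- cecum (-0.33 ± 0.50, adjusted p = 0.602).

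Other GATA zinc finger genes stayed low. Gata1, Gata2, Gata3 and Trps1 summed to at most 18.9 CPM in any library. In Cdx2-/- cecum, with 53.1% of all genes called, 3 of the 4 were higher than in WT cecum: Gata3, a factor of T cells and innate lymphoid cells (2.11 ± 0.42, adjusted p = 0.000332), Gata2, a factor of mast cells and endothelium (0.76 ± 0.27, adjusted p = 0.0226), and Trps1 (0.83 ± 0.34, adjusted p = 0.0437). Gata3 had 0.583, 0.418 and 0.743 CPM in WT cecum and between 1.51 and 3.76 CPM in Cdx2-/- cecum. Mast cell markers summed to between 16.9 and 64.6 CPM in WT cecum and 53.2 and 381 CPM in Cdx2-/- cecum, and T cell markers to between 8.26 and 22.6 CPM and 8.23 and 25.2 CPM; their part was not tested.

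Partner factors of gut epithelium moved in both directions. Of 9 such genes, 2 were higher and 6 lower in Cdx2-/- than in WT cecum, against 53.1% of all genes called; Cdx2 itself is in the list and is 1 of the 6. The higher ones were Foxa1 (1.47 ± 0.15, adjusted p = 1.80e-07) and Foxa3 (1.02 ± 0.17, adjusted p = 5.11e-05), forkhead factors that open chromatin for endoderm genes. Among the lower ones were Hnf4a (-2.36 ± 0.27, adjusted p = 9.30e-07) and Hnf4g (-2.67 ± 0.40, adjusted p = 1.52e-05), nuclear receptors of enterocyte genes. In Cdx2+/- cecum Foxa1 (1.69 ± 0.16, adjusted p = 5.05e-07) and Foxa3 (1.42 ± 0.19, adjusted p = 1.59e-05) were again higher, and Hnf4a (-0.81 ± 0.33, adjusted p = 0.0656) and Hnf4g (0.38 ± 0.47, adjusted p = 0.573) were not called.

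Both Gata5 and Gata6 have an antisense neighbour that shares exon bases with them, and the kit does not mark strand, so reads of the shared stretches cannot be told apart. Gata5os (ENSMUSG00000056061, chromosome 2, plus strand, 180332857 to 180340732) shares 258 exon bases with Gata5. Its start lies inside the Gata5 gene, and the part of Gata5 reads in its counts was not tested. It held 1, 7 and 3 reads in the WT cecum libraries and 76 to 167 reads in the other 21. It was higher than in WT cecum by 4.74 ± 0.38 in Cdx2-/- cecum (adjusted p = 1.02e-08), 4.36 ± 0.39 in Cdx2+/- cecum (adjusted p = 2.15e-07) and 4.71 ± 0.39 in stomach (adjusted p = 2.62e-08), and between Cdx2-/-;Apc+/- and Apc+/- ileum it differed by 0.28 ± 0.30 (adjusted p = 0.877).

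The neighbour of Gata6, 1010001N08Rik (ENSMUSG00000097222), shares 93 exon bases with it and lies on the minus strand, mostly before its start. It had 1.43, 2.03 and 2.42 CPM in WT cecum and 32.2, 29.0 and 18.3 CPM in stomach (3.75 ± 0.35, adjusted p = 9.58e-08). It was higher in Cdx2-/- than in WT cecum by 1.93 ± 0.30 (adjusted p = 2.93e-05), against 0.39 for Gata6; set 1 gave 1.94 ± 0.33 and set 2 gave 1.92 ± 0.33. It was higher in Cdx2-/- than in Cdx2+/- cecum too (1.04 ± 0.29, adjusted p = 0.00839), where Gata6 was not called.

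**Figure D5:**
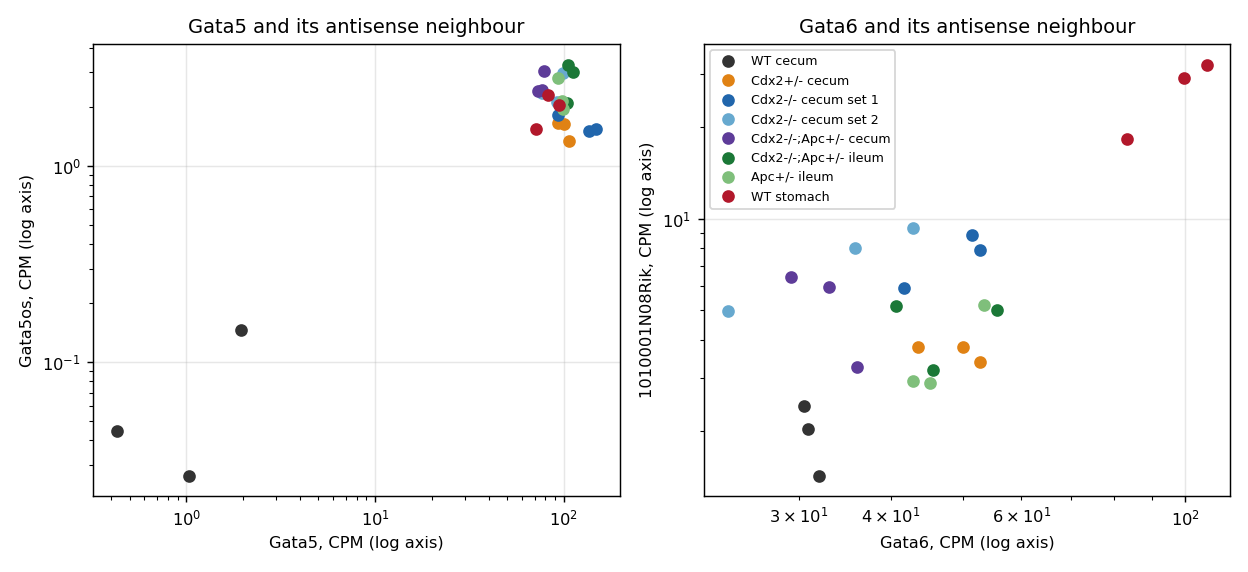
CPM of Gata5os against Gata5 and of 1010001N08Rik against Gata6 in the 24 libraries, both axes log; colours are groups. The 3 WT cecum libraries lie alone at the lower left of the Gata5 panel, with 0.0265 to 0.146 CPM of Gata5os against 1.34 CPM or more elsewhere, while in the Gata6 panel the groups form a band with stomach at its top.

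Genes whose log2 CPM followed each member most closely over the 24 libraries were listed from 13498 genes, as a description with points that share groups. For Gata5 they were Lsr (Pearson r = 0.95), a receptor of tricellular junctions, Habp2 (0.95), Hid1 (0.95), Smoc1 (0.94) and Arhgap40 (0.94), and in the opposite sense Slc37a2 (-0.96), Mpp6 (-0.94) and Adh5 (-0.94). Slc37a2, a sugar phosphate carrier, had 2370.0 ± 455 CPM in WT cecum (SD, n = 3) and group means between 3.59 and 12.0 CPM elsewhere, the reverse of Gata5. Lsr had 11.2 ± 2.50 CPM in WT cecum and group means between 65.4 and 95.4 CPM elsewhere.

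For Gata4 the closest were Teddm3 (0.96), Ip6k2 (0.90), Map3k9 (0.90), Slc38a3 (0.89) and Sox21 (0.89), and the most opposite Pde8b (-0.93), Slc39a8 (-0.90) and Cyp2w1 (-0.89). Teddm3 shared the split between mutant ceca, with 70.1 ± 28.03 CPM in Cdx2+/- cecum (SD, n = 3) and 0.281 ± 0.106 CPM in set 1. For Gata6 they were Gpn3 (0.90), Arhgdig (0.90), Cxxc1 (0.90), Foxa3 (0.90) and Pde1c (0.90), and in the opposite sense Noxo1 (-0.91), Birc3 (-0.90) and Casp4 (-0.90). The members followed each other less: r was 0.73 between Gata4 and Gata6, 0.40 between Gata5 and Gata6 and 0.26 between Gata4 and Gata5.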

How the data were processed

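The authors deposited a table of raw counts, by Ensembl identifier, for each library. The submitters' processing notes name CASAVA, TopHat2 2.0.11, GRCm38 and HTSeq 0.5.3p3; per the labels, Trizol RNA went into TruSeq mRNA libraries, a kit that does not mark strand. How strand was set in counting, and which annotation was used, is not given in the sources used here. Symbols came from GENCODE M21 (37607 of 39179 genes). The 5 closing entries that name no gene stayed out of all sums; they held reads in no gene (6.62 to 10.4% of all counts in a table), in more than 1 gene (2.00 to 3.44%) and not uniquely aligned (17.3 to 30.0%).

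Genes were tested with edgeR 4.0.16 (R 4.3.3), its quasi-likelihood F test with TMM and filterByExpr, on 24 libraries in 8 groups, with Benjamini-Hochberg adjustment over 20502 genes and a threshold of 0.05. The code was tested on simulated counts. Both Cdx2-/- sets were averaged with equal weight. Intervals are 95%. Alternatives were RLE scaling, DESeq2 1.42.0, other filters, fits of the compared groups alone, a replicate block, set 1 replicates 2 and 3 added up as 1 library, each library left out and, chosen after the data were seen, WT cecum replicate 3 alone. Set 1 replicates 2 and 3 differed by a chi-square of 7.03 per degree of freedom, against 53.0 to 507 in the other pairs within groups. Besides the members, at most 4 genes a list were named, by adjusted p in the comparison described; Foxa3 in Cdx2-/- cecum, Hnf4a and Hnf4g in Cdx2+/- cecum, Xist, and Lct and Cdx2 in single ileum libraries were named after their values were seen. Genes of like pattern were the 5 highest and 3 lowest Pearson r of log2 CPM (prior count 2) among protein-coding genes with a mean of at least 1 CPM. Replicate numbers were checked for pairing by the correlation of same-numbered libraries' deviations from group means: all 3 passed 0.1 in 1 of 21 group pairs, WT with Cdx2+/- cecum (0.182, 0.101 and 0.227). The members and lists were chosen with earlier results of these data known.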

Additional observations from a re-analysis of the deposited data

Results flagged for a closer look

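The difference in Gata5 between the labelled genotypes was not the same in cecum and ileum. Its log2 change from WT cecum to Cdx2-/-;Apc+/- cecum exceeded its change from Apc+/- to Cdx2-/-;Apc+/- ileum by 5.94 ± 0.44 (edgeR interaction test, adjusted p = 1.42e-07). The cecum groups do not overlap (0.431 to 1.95 against 73.1 to 79.0 CPM), and the ileum groups are both high (93.4 to 99.3 against 103.5 to 111 CPM). The cecum control is wild type and the ileum control carries the Apc allele, so tissue and control genotype cannot be told apart. Cdx2 itself was not detectably lower in Cdx2-/-;Apc+/- than in Apc+/- ileum (97.8 against 88.6 CPM; 0.14 ± 0.47, edgeR adjusted p = 0.981). In the group of 6 Cdx2-/- cecum libraries no member had a library that stood apart from the rest by Dixon's test; groups of 3 were not tested.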

How the results depend on the processing

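All 222 alternative values of Gata5 over the 16 comparisons kept their direction and side of the threshold; 207 of Gata4 and 187 of Gata6 did. Causes were not tested. For Gata6 in Cdx2-/- against WT cecum (0.39) the call was lost with RLE scaling (0.36), no filter (0.40), the compared groups alone (0.44), set 1 replicates 2 and 3 as 1 library (0.37) and WT cecum replicate 3 alone (0.42); single omissions gave 0.298 to 0.495. With WT cecum replicate 3 alone, Gata6 also lost its call in set 1 (0.68), Cdx2+/- cecum (0.68) and Apc+/- ileum (0.63), and Gata4 turned to 2.07 in Cdx2-/- cecum, 2.15 in set 1, 1.99 in set 2, 2.31 in Cdx2-/-;Apc+/- cecum and 0.98 in the interaction. Gata4 in Cdx2-/- against WT cecum was called by DESeq2 (-2.32) and in a fit of those groups alone (-2.19); single omissions gave -2.85 to -0.95. Fits of the compared groups alone lost Gata4 in Apc+/- ileum against WT cecum (4.05; omissions 2.62 to 5.27) and in Cdx2-/-;Apc+/- cecum against ileum (-7.27), and gained it in Cdx2+/- cecum against stomach (-1.43). Gata6 in Cdx2-/-;Apc+/- cecum against ileum lost its call with no filter (-0.55) and in that fit (-0.50; omissions -0.63 to -0.40). Gata6 between the ileum groups, near 0, turned to -0.0156 with RLE scaling, -0.0154 with DESeq2, -0.00634 with no filter and -0.0101 with a stricter filter (omissions -0.13 to 0.11).

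Omissions also turned Gata4 between ileum groups (-1.32 to 2.68), between sets (-0.96 to 0.29) and for Cdx2-/-;Apc+/- against Cdx2-/- cecum (-0.31 to 0.64), and Gata6 in set 2 against WT cecum (-0.0536 to 0.341) and in the interaction (-0.0291 to 0.204); Gata6 between sets (-0.70 to -0.31) was called without set 2 replicate 6. In 20 of 21 group pairs not all 3 correlations passed 0.1. Such a check cannot exclude that same-numbered libraries come from the same mouse. A replicate block, possible for set 1 alone of Cdx2-/- cecum, called Gata6 in Cdx2-/-;Apc+/- against Cdx2-/- cecum (-0.57) and changed no other call of a member; in Cdx2+/- against WT cecum, the pair of groups that passed, it gave 6.66, 6.53 and 0.64 for Gata4, Gata5 and Gata6. Called genes moved by over 1.5 times between the ileum groups (91; 419 by DESeq2, 1 in the fit of those groups, 3 to 583 by omission), for Cdx2-/-;Apc+/- against Cdx2-/- cecum (1729; 4326 with the block, 280 to 1862 by omission), between sets (2148; 665 to 2091), for Cdx2-/-;Apc+/- cecum against ileum (3321; 1620 to 3405 by omission, 4228 by DESeq2, and 0 in the edgeR fit of those groups alone, with 4171 at an unadjusted p under 0.05), for Cdx2-/- against Cdx2+/- cecum (8253; 5363 with the block) and, with WT cecum replicate 3 alone, in each comparison with WT cecum (10881 to 4889 in Cdx2-/- cecum). Depth limits Gata4 in WT cecum and in cecum labelled Cdx2-/-, which rests on 4 to 127 reads.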
